A study of Homo sapiens and Mus musculus with 18 samples.

Results

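Axon guidance ligands and receptors are secreted or membrane-bound cues and the surface proteins that read them, and 40 of their genes were followed across mesothelial cells made from human embryonic stem cells. The 40 genes were taken by name from 4 systems. They comprised 3 Slit ligands with 4 Robo receptors, 2 netrins with 6 netrin receptors, 7 class 3 semaphorins with 2 neuropilins and 5 plexins, and 4 ephrins with 7 Eph receptors. All 40 had a gene ID in both human sets of counts, among 63677 IDs in the 7 one-library files and 56299 IDs in the human table.

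RNA was sequenced in bulk from cells made from WA09, a human embryonic stem cell line, and all human groups passed through splanchnic mesoderm, the mesoderm layer from which mesothelium arises. MLC, named by the submitters as the epithelial form of mesothelium, was made in 18 days with 4 µM retinoic acid and 20 µM SB431542, which blocks TGF-beta type I receptors, in medium without FGF2 or Activin A (2 libraries). MesoT FCS was MesoT taken to passage 4 in 10% serum with 8 ng/ml FGF2 (2 libraries). Smooth muscle was made from splanchnic mesoderm and had 1 library. MesoT-derived MLC was MesoT replated in the MLC medium, with the same 20 µM SB431542 and 4 µM retinoic acid (2 libraries). MesoT, named by the submitters as the mesenchymal form, was grown with 25 ng/ml WNT3A, 50 ng/ml BMP4 and 4 µM retinoic acid and was sampled at day 22 and at day 18 (2 libraries each). Mouse cells were sorted for tdTomato from the heart, lung, liver and gut of Wt1creERT2/+ Rosa26tdT/+ embryos at E15.5, after 3 daily tamoxifen injections from E12.5 (1 library per organ). In these mice the inducible Cre is driven from the Wt1 locus, so the sorted cells are those that used Wt1 at the time of tamoxifen and their descendants. All human cells came from a single stem cell line, and nothing in the labels says that replicates were separate differentiations. The p-values therefore measure the spread between these libraries, which may be technical.

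Slits are secreted proteins that repel cells and growth cones through Robo receptors. Netrins attract through DCC or neogenin and repel through UNC5 receptors. Class 3 semaphorins are secreted, bind neuropilins, and signal through plexins, while ephrins and Eph receptors are both on cell surfaces and signal on contact, in either cell. Outside the nervous system these families act in blood vessels and in developing organs. In mice, loss of Slit3 leads to a diaphragmatic hernia, and Sema3d made outside the nervous system helps to pattern the pulmonary veins.

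The 250 bases before the start of 5 genes are printed because results described below turn on them: SLIT2 and PLXND1 in MLC, NEO1 and PLXNA2 with opposite directions in MLC and in MesoT FCS, and EFNA1 in MesoT FCS. They are RefSeq sequences on GRCh38.p14, 5′ to 3′ on the gene's strand, and RefSeq windows were found for 35 of the 40 genes. The counts themselves were made on hg19, so these coordinates do not refer to the build of the counts. Capitals mark matches to 7 short motifs searched on both strands.

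SLIT2, chr4:20251655-20251904, plus strand: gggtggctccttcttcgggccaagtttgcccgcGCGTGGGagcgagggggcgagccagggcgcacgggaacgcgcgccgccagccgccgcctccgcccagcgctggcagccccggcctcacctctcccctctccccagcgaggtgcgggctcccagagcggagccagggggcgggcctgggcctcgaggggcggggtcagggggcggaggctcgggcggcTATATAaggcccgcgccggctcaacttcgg
NEO1, chr15:73051652-73051901, plus strand: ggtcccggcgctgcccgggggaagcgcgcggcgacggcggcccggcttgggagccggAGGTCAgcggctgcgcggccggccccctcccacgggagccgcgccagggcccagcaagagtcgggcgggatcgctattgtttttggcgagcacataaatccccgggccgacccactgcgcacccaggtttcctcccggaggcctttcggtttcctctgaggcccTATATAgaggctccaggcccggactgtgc
PLXNA2, chr1:208244385-208244634, minus strand: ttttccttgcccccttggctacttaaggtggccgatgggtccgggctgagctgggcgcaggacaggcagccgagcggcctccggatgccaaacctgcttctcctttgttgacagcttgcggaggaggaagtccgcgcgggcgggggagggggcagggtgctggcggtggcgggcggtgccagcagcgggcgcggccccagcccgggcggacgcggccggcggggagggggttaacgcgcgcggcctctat
PLXND1, chr3:129606677-129606926, minus strand: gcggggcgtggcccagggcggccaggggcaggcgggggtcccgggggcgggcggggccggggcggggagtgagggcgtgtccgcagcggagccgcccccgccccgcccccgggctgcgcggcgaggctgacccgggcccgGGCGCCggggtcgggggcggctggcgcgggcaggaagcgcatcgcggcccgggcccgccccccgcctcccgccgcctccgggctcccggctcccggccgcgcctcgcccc
EFNA1, chr1:155127626-155127875, plus strand: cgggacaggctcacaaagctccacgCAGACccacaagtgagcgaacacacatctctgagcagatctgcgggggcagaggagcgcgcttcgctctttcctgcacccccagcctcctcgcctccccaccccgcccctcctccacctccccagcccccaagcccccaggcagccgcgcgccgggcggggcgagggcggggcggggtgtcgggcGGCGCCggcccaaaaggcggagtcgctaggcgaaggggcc

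Of 35116 such windows of human genes, 38% held the SMAD box, CAGAC, and 16.4% a GC motif of BMP SMADs, GGCGCC. A core of TCF and LEF factors, CTTTGA, was in 11.2%, and the core of retinoid receptor sites, AGGTCA, in 12.1%. A TEAD motif, GGAATG, was in 11.9%, a core of WT1 and EGR factors, GCGTGGG, in 6.19%, and a TATA-like motif, TATATA, in 3.73%. The SLIT2 window held the WT1 core from base 217 before the start and the TATA-like motif from base 30 before it. The NEO1 window held the retinoid core from base 193 and the TATA-like motif from base 29 before the start. The BMP SMAD motif began 110 bases before the start of PLXND1 and 40 bases before that of EFNA1, and EFNA1 also held the SMAD box at base 225. None of the 7 was in the PLXNA2 window. No match overlapped another, and a match describes letters only. The WT1 core and the TATA-like motif were added after the windows had been seen, so their shares cannot tell how unusual these matches are.

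Depth ran between 65709545 and 70679258 counts in the MLC libraries and between 21148477 and 31435480 in the other human libraries. The MesoT day 18 libraries were deposited in both sets, counted separately. Their levels agreed within 0.5 on the log2 scale for 32 of the 40 genes, while ROBO4, UNC5D, DCC, SEMA3E, SEMA3G and EPHA3 differed more, and SLIT1 and UNC5A were below 10 counts. Levels are CPM, counts divided by the scaled library size and put on a base of 1000000, scaled within each set. Levels and main tests therefore stay within a set. An alternative fit put the MesoT day 18 counts of the human table in place of those of the one-library files. In that fit the counting differs between MesoT day 18 and every other group. CPM is not corrected for gene length, so it is compared between groups for 1 gene, never between genes. WT1, a mesothelial transcription factor, stood at 217 and 148 CPM in MLC, 5.58 and 3.41 in MesoT FCS, 0.0407 in smooth muscle, and 25.9 and 46.2 in MesoT day 18. The library labelled smooth muscle had 2930 summed CPM over 8 basal epidermal markers, against 12.6 to 13.4 in MesoT day 18. None of 9 smooth muscle markers passed the test there, with 1201 summed CPM in smooth muscle and 286 to 1676 in MesoT day 18. Of 13 endothelial markers, 3 were at 1 CPM or more in each MLC library and 6 and 3 in MesoT FCS. In smooth muscle 7 were at that level, and in MesoT day 18 it was 7 and 8. PECAM1 was at 0 in all human libraries. Whether its gene ID could receive reads in the counting was not tested, so this 0 is not read as absence of its RNA. KDR, a VEGF receptor, was at 115 and 156 CPM in MLC, 7.41 and 0.168 in MesoT FCS, 25.6 in smooth muscle, and 249 and 74.7 in MesoT day 18. In the human table KDR ranged between 56.6 and 304 CPM over the 6 libraries.

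**Figure D1:**
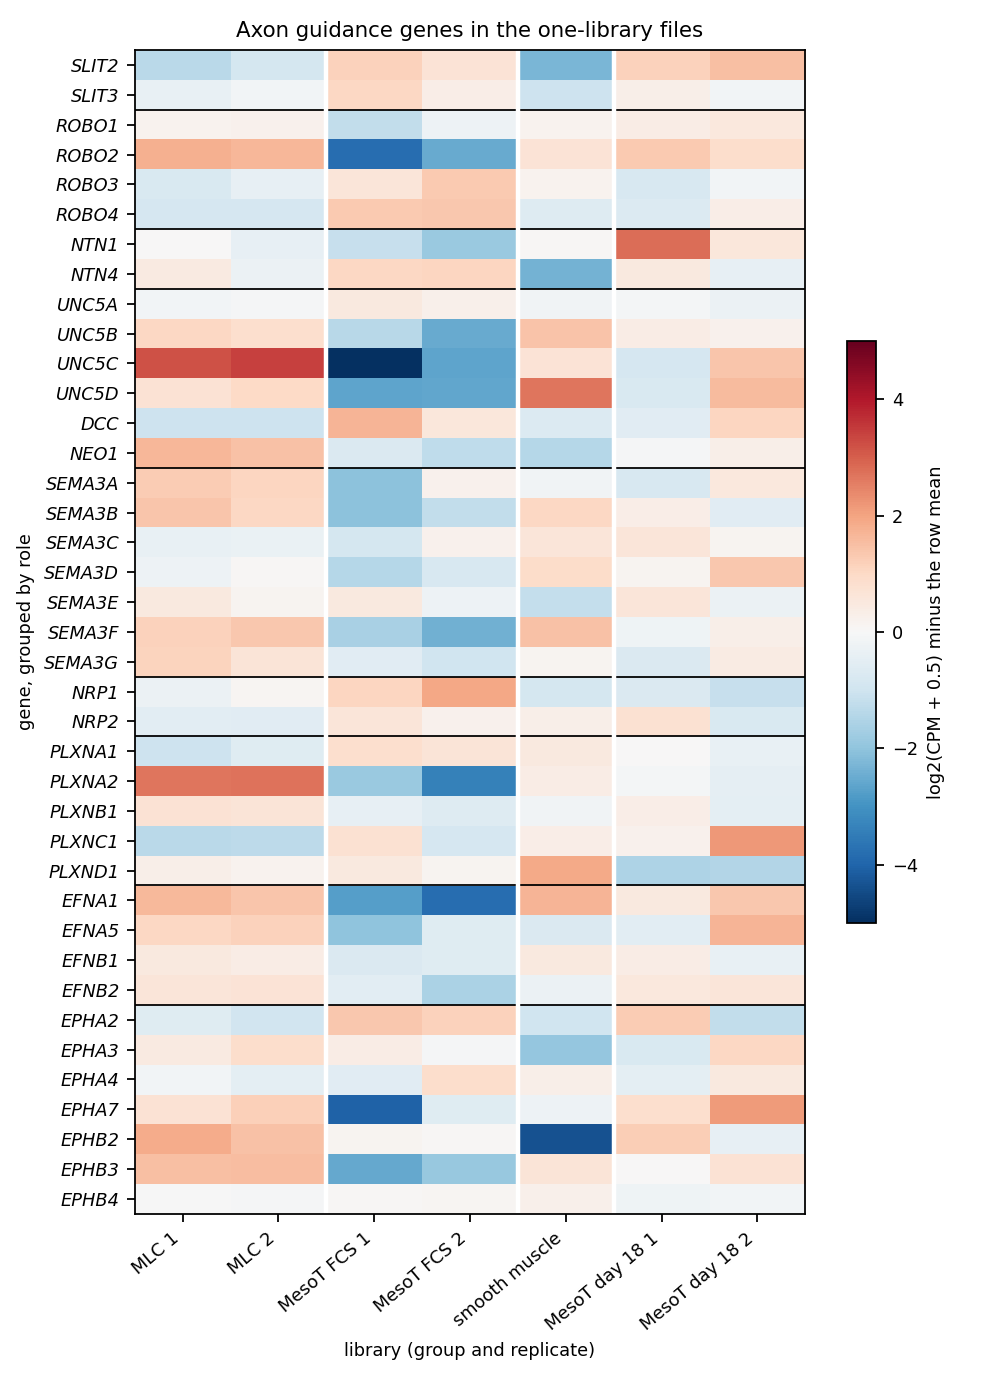
Rows are the genes grouped by role (SLIT1, at 0 throughout, is left out) and columns the 7 libraries of the one-library files. Colour is the log2 level (CPM plus a pseudocount of 0.5) minus the gene's mean over the 7 libraries, so red is above and blue below that mean; ROBO2, UNC5C, PLXNA2, EFNA1 and EPHB3 are blue in both MesoT FCS libraries and PLXND1 in both MesoT day 18 libraries.

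MLC differed from MesoT day 18 in few of these genes. SLIT2, a secreted repellent, was lower, at 20.2 ± 4.86 CPM in MLC and 111 ± 20.2 in MesoT day 18 (SD, n = 2 each), and the receptors PLXNA2, PLXND1 and NEO1 and the ligand SEMA3F were higher. In these bulk samples fewer cells that use a gene and less of its RNA per cell cannot be told apart. Of 38 genes tested, 4 rose and 4 fell at an adjusted p under 0.05 (edgeR quasi-likelihood test, Benjamini-Hochberg over all genes), or 21.1%, where 24.6% of the 23049 genes tested passed in either direction (7.83% higher and 16.8% lower). That share is near the background. The median log2 fold change was 0.12 over these genes and -0.026 over all genes. With library totals as the only scaling, 3 of these genes were higher and 5 lower, and the calls over all genes split into 1008 higher and 4048 lower, in place of 1804 and 3862.

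In MesoT FCS against MesoT day 18 more of these genes passed, mostly downward. Netrins, netrin receptors, class 3 semaphorins, ephrins and Eph receptors had members that fell and none that rose. With so few genes in a class, this is not read as a trait of any class. ROBO3, NRP1, PLXNA1 and PLXND1 rose. Of 38 tested, 4 rose and 14 fell, or 47.4%, where 27.3% of all genes passed (13% higher and 14.4% lower), and the median log2 fold change was -0.66 against -0.16 over all genes. With library totals alone, 2 were higher and 16 lower, and the calls over all genes split into 1361 higher and 5731 lower in place of 2991 and 3310. That scaling alone moves the median log2 fold change of all genes by -0.51, to -0.67. Both this comparison and the one of MLC rest on the same MesoT day 18 libraries, so MLC was also set directly against MesoT FCS. There 15 of 38 were higher in MLC and 7 lower, or 57.9%, where 48.9% of all genes passed (22.6% higher and 26.3% lower). The median log2 fold change of MLC over MesoT FCS was 1.05 for these genes and 0 for all genes. With library totals alone, 17 were higher and 6 lower, and the calls over all genes were 6833 higher and 4757 lower in place of 5202 and 6070.

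**Figure D2:**
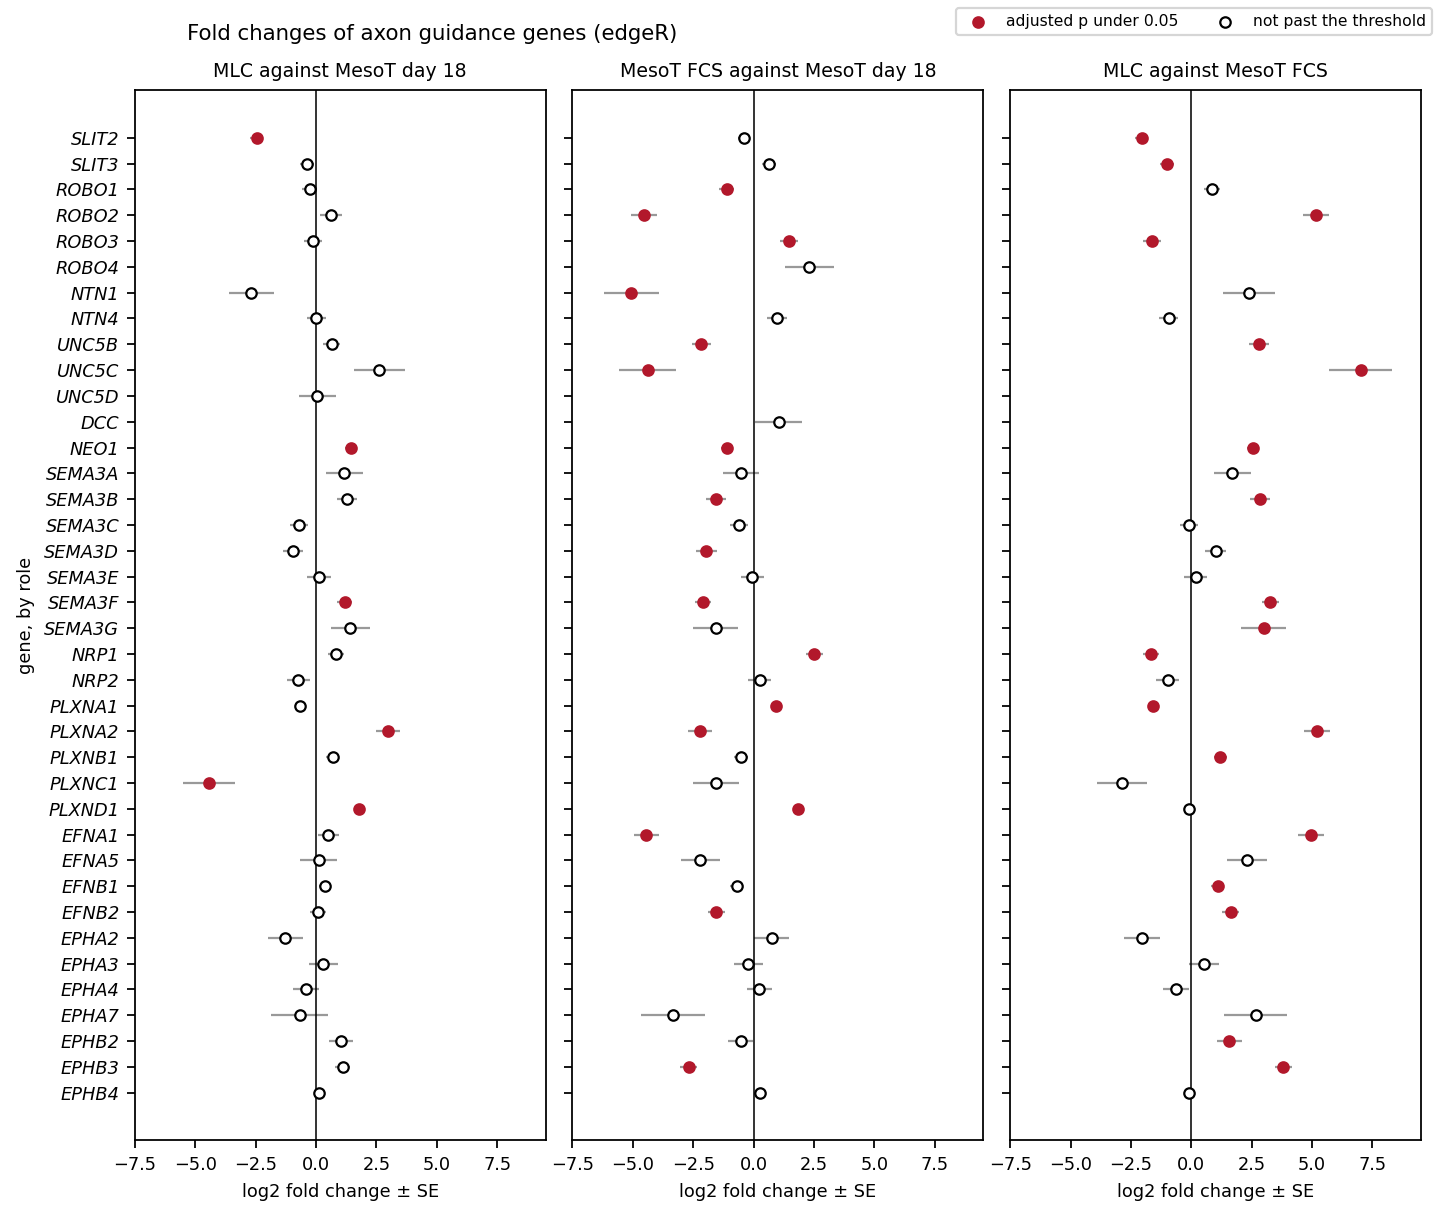
Each point is a gene's log2 fold change (x axis) with its standard error as a bar, for MLC against MesoT day 18 (left), MesoT FCS against MesoT day 18 (middle) and MLC against MesoT FCS (right), and filled red points passed an adjusted p of 0.05. Genes with 3 or fewer counts in a group (ROBO4, UNC5D and DCC, where it applies) carry no point there. PLXNA2, NEO1 and SEMA3F lie right of 0 on the left and left of 0 in the middle, and PLXND1 lies right of 0 in both.

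Among the Slit ligands, SLIT2 stood at 16.8 and 23.6 CPM in MLC, 96.9 and 71.1 in MesoT FCS, and 96.4 and 125 in MesoT day 18. Both MLC libraries were below all other libraries of these groups, and the MesoT FCS and day 18 ranges overlapped slightly. Its log2 fold change was -2.45 ± 0.27 (SE) in MLC over MesoT day 18 (edgeR adjusted p = 0.00242) and -2.06 ± 0.27 over MesoT FCS (0.00232), and it passed under all 12 alternatives of the first and all 11 of the second. In MesoT FCS over MesoT day 18 the log2 fold change was -0.40 ± 0.26 (adjusted p = 0.281). SLIT3 had 112 and 132 CPM in MLC, 302 and 184 in MesoT FCS, and 180.5 and 133 in MesoT day 18. It was lower in MLC than in MesoT FCS with a log2 difference of -0.99 ± 0.29 (adjusted p = 0.0345). That call ended without either MLC library or without MesoT FCS replicate 1, where p lay between 0.121 and 0.18, and with library totals (0.0812). SLIT1 was at 0 in all 7 libraries of the set and was not tested.

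The Robo receptors differed in direction. ROBO2, a Slit receptor of neurons and of the kidney rudiment, had 58.2 and 53.0 CPM in MLC, 0.714 and 2.46 in MesoT FCS, and 41.1 and 30.9 in MesoT day 18. The MesoT FCS libraries were far below both other groups and overlapped neither. Its log2 fold change was -4.53 ± 0.54 in MesoT FCS over MesoT day 18 (adjusted p = 0.00594) and 5.16 ± 0.55 in MLC over MesoT FCS (0.00126), and it passed under every alternative tried in both. ROBO1, a broadly expressed Slit receptor, had 149 and 152 CPM in MLC, 56.5 and 109.5 in MesoT FCS, and 170.2 and 190.3 in MesoT day 18. It fell in MesoT FCS against MesoT day 18 with a log2 difference of -1.12 ± 0.32 (edgeR adjusted p = 0.0464). The call ended without MesoT FCS replicate 1 (-0.72, edgeR adjusted p = 0.0906) or without either day 18 library (0.0568 and 0.111). ROBO3, a divergent Robo that in mammals does not bind Slits with high affinity, went the other way. It had 6.54 and 8.48 CPM in MLC, 17.5 and 28.4 in MesoT FCS, and 6.22 and 10.3 in MesoT day 18, so that both MesoT FCS libraries were above all others. The rise in MesoT FCS over MesoT day 18 was 1.47 ± 0.37 (adjusted p = 0.0353), and the difference of MLC from MesoT FCS was -1.61 ± 0.37 (0.0157). The first call ended without either MesoT FCS library or day 18 replicate 1 (p between 0.051 and 0.132) and with library totals (0.137), and the second without either MLC library or MesoT FCS replicate 2 (0.0689 to 0.107).

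ROBO4, the Robo of endothelial cells, was rare in every library. MLC had 0 counts in its 2 libraries together, against 71 counts (1.74 and 1.79 CPM) in MesoT FCS and 21 counts (0.0644 and 0.649 CPM) in MesoT day 18. The 0 was set at 3 counts, the limit that it allows for the 2 libraries together. On pooled counts scaled for depth, MLC was then 85.7-fold lower than MesoT FCS (edgeR adjusted p = 0.00952) and 16.9-fold lower than MesoT day 18 (0.0436). These folds leave out counting error in the other group and the spread between replicates. The day 18 libraries held 2 and 19 counts, so 16.9 is not a lower limit. The second call ended without either MLC library or day 18 replicate 2 (p between 0.0886 and 0.162). Of 12 endothelial markers tested, none was higher and 5 were lower in MLC than in MesoT day 18, where 16.8% of all genes were lower. Their summed level was 143 to 185 CPM in MLC, 60.1 to 114 in MesoT FCS and 145 to 302 in MesoT day 18. Their part in the ROBO4 result was not tested.

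**Figure D3:**
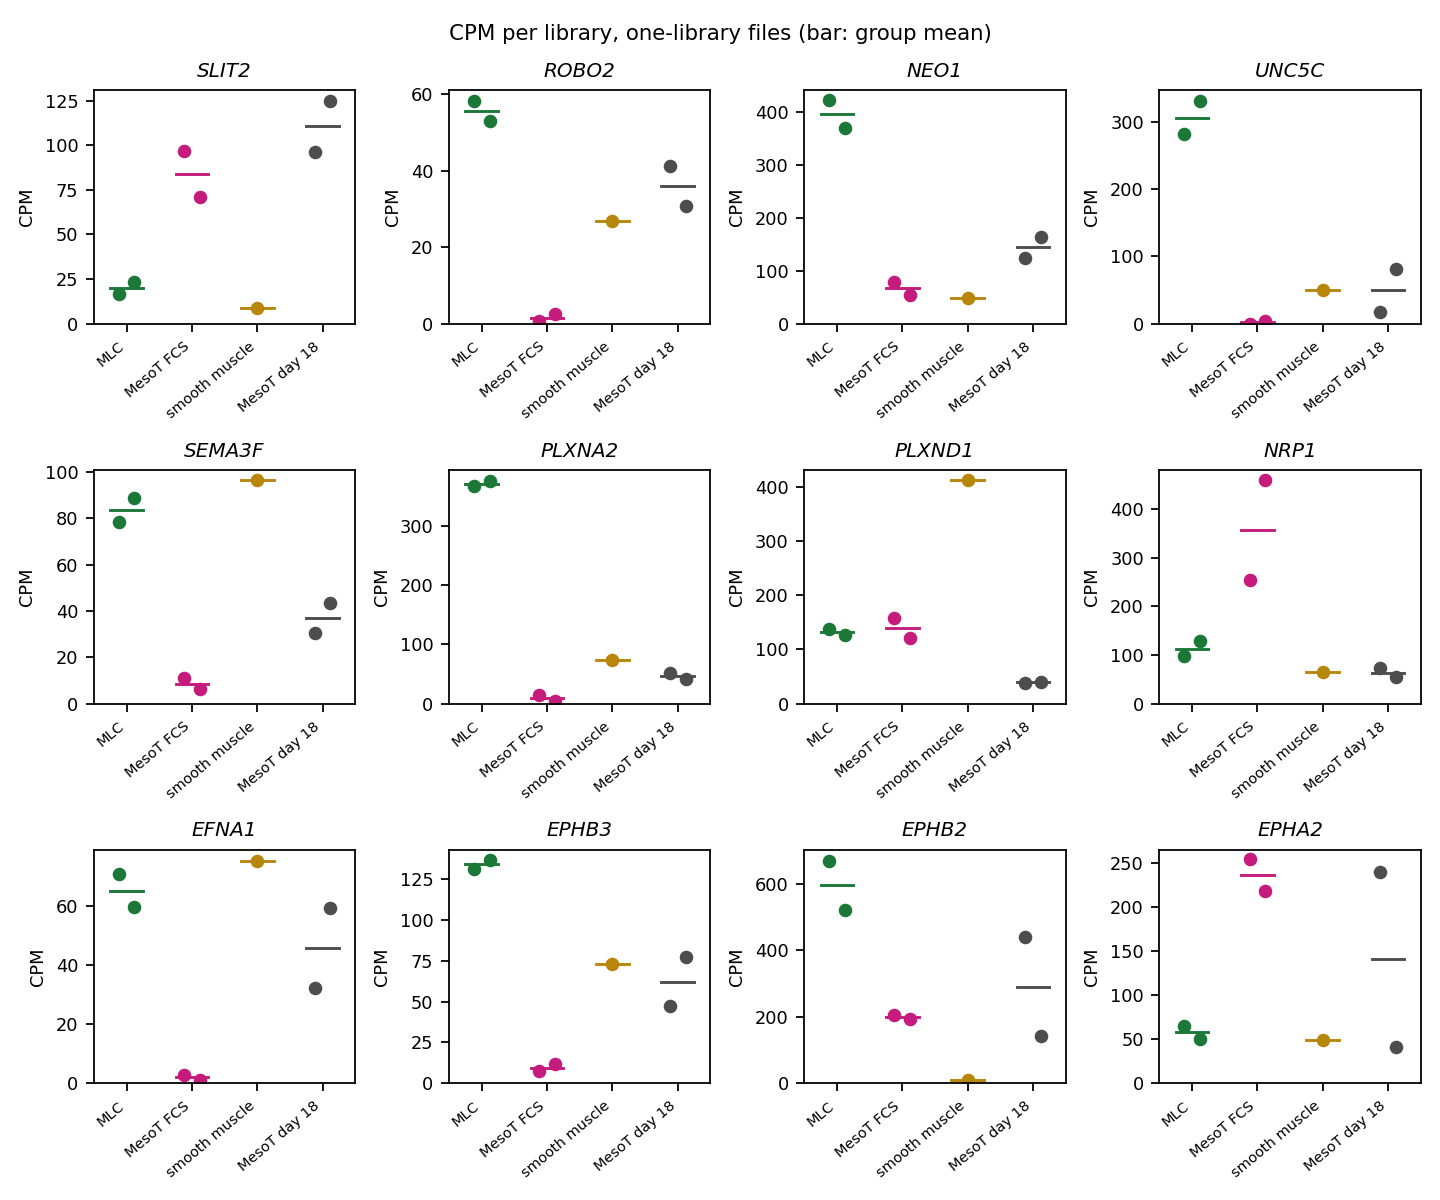
Each panel gives 1 gene's CPM on a linear axis from 0 in the 2 MLC, 2 MesoT FCS, 1 smooth muscle and 2 MesoT day 18 libraries, 1 point per library, with a bar at the group mean. SLIT2 is low in MLC and smooth muscle, PLXND1 has its lowest points in MesoT day 18, and ROBO2, UNC5C, PLXNA2, EFNA1 and EPHB3 have their lowest points in MesoT FCS.

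Of the netrins, NTN1, the main secreted attractant, had 1.53 and 1.01 CPM in MLC, 0.402 and 0.0558 in MesoT FCS, and 13.7 and 2.53 in MesoT day 18. It fell in MesoT FCS with a log2 difference of -5.07 ± 1.13 (adjusted p = 0.0247), and its day 18 replicates were themselves more than 5-fold apart. The call ended without either MesoT FCS library (p of 0.0648 and 0.0936) and with limma voom (0.0682). NTN4, a laminin-related netrin of basement membranes, had 15.3 and 8.89 CPM in MLC, 23.0 and 23.5 in MesoT FCS, and 15.8 and 8.17 in MesoT day 18, and passed in none of these 3 comparisons.

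All 5 netrin receptors tested passed between MLC and MesoT FCS, 4 higher and 1 lower in MLC, where 22.6% of all genes were higher and 26.3% lower. NEO1 (neogenin), a receptor of netrins and of RGM proteins, had 423 and 369 CPM in MLC, 79.6 and 55.2 in MesoT FCS, and 125 and 163 in MesoT day 18. The 3 groups did not overlap, with MLC highest and MesoT FCS lowest. The log2 fold change was 1.46 ± 0.25 in MLC over MesoT day 18 (adjusted p = 0.0111), -1.10 ± 0.25 in MesoT FCS over MesoT day 18 (0.026) and 2.55 ± 0.26 in MLC over MesoT FCS (0.00109). The third passed under all 11 alternatives. The first ended without either MLC library (p of 0.0867 and 0.064), and the second without MesoT FCS replicate 2 (0.101) or day 18 replicate 2 (0.0597).

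UNC5B, which mediates netrin repulsion and is also a receptor in vessels, had 418 and 370.5 CPM in MLC, 78.0 and 35.0 in MesoT FCS, and 265 and 241 in MesoT day 18. It was lower in MesoT FCS than in MesoT day 18 with a log2 difference of -2.16 ± 0.39 (adjusted p = 0.0141) and higher in MLC than in MesoT FCS by 2.80 ± 0.40 (0.00299), under every alternative tried. UNC5C had 282 and 331 CPM in MLC, 0.357 and 4.52 in MesoT FCS, and 17.0 and 82.1 in MesoT day 18. The MLC libraries agreed closely, while those of each other group differed several-fold. Its log2 fold change was 7.01 ± 1.31 in MLC over MesoT FCS (adjusted p = 0.00769) and -4.38 ± 1.18 in MesoT FCS over MesoT day 18 (0.0412). The fall ended without MesoT FCS replicate 1 (-3.45, adjusted p = 0.0991), without day 18 replicate 2 (-2.86, adjusted p = 0.1) and with limma voom (0.0662). In MLC over MesoT day 18 it was 2.63 ± 1.05 (adjusted p = 0.121), so a higher level in MLC did not pass.

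UNC5D, an UNC5 receptor that also binds FLRT proteins, had 5.15 and 6.30 CPM in MLC and 1.51 and 9.53 in MesoT day 18, with 2 counts in both MesoT FCS libraries together. The ratio of counts, scaled for depth, was 115 in MLC over MesoT FCS, with a 95% counting interval of 31.7 to 951 (adjusted p = 0.00665), and 0.00918 in MesoT FCS over MesoT day 18 (0.00111 to 0.0334; adjusted p = 0.0148). The second ended without either MesoT FCS library (p of 0.0812 and 0.0723) and with limma voom (0.061). DCC, the classical netrin receptor of neurons, ran against the rest of its class. MLC held 2 counts over both libraries, against 2.95 and 1.06 CPM in MesoT FCS and 0.226 and 1.74 in MesoT day 18. The ratio was 0.0065 in MLC over MesoT FCS (0.000775 to 0.0242; adjusted p = 0.00907) and 0.0143 over MesoT day 18 (0.00169 to 0.0539; adjusted p = 0.0278). Both ended without either MLC library (p between 0.0705 and 0.169), and the second also without day 18 replicate 2 (0.0678) and with limma voom (0.056). These intervals cover counting error only. UNC5A was under the count filter, at 0 to 0.357 CPM in all 7 libraries. The 13 neuron and neural crest markers summed to 159 to 175 CPM in MLC, 261 to 278 in MesoT FCS and 82.8 to 112 in MesoT day 18, with ELAVL4 at 0 throughout. Single genes weighed on these sums in opposite directions. DCX had 128 and 106 CPM in MLC and 0.179 and 0 in MesoT FCS, while STMN2 had 0.634 and 0.983 in MLC and 212 and 110 in MesoT FCS. The sums therefore do not rank the groups for the list as a whole. The part of these markers in the results of DCC, ROBO2 and the UNC5 genes was not tested.

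None of the 7 class 3 semaphorins rose in MesoT FCS against MesoT day 18 and 3 fell, where 13% of all genes rose and 14.4% fell. SEMA3F, which acts through NRP2, had 78.4 and 88.7 CPM in MLC, 11.1 and 6.14 in MesoT FCS, and 30.3 and 43.4 in MesoT day 18. As with NEO1, the 3 groups did not overlap, with MLC at the top and MesoT FCS at the bottom. The log2 fold change was -2.09 ± 0.33 in MesoT FCS over MesoT day 18 (adjusted p = 0.0108) and 3.27 ± 0.35 in MLC over MesoT FCS (0.00121), each under every alternative tried. In MLC over MesoT day 18 it was 1.18 ± 0.32 (0.0435), which ended without either MLC library or day 18 replicate 1 (p between 0.089 and 0.208) and with library totals (0.0858). SEMA3B had 118 and 92.4 CPM in MLC, 10.4 and 18.8 in MesoT FCS, and 56.6 and 29.9 in MesoT day 18. It was higher in MLC than in MesoT FCS by 2.85 ± 0.42 (adjusted p = 0.00352) under every alternative, and lower in MesoT FCS than in MesoT day 18 with a log2 difference of -1.57 ± 0.41 (0.0369). The fall ended without either MesoT FCS library or day 18 replicate 1 (p between 0.0543 and 0.138).

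SEMA3D, a cue of vessels and heart, had 55.0 and 68.0 CPM in MLC, 23.7 and 37.6 in MesoT FCS, and 72.7 and 166 in MesoT day 18, and fell in MesoT FCS with a log2 difference of -1.96 ± 0.44 (adjusted p = 0.0247). That call ended without either MesoT FCS library (p of 0.11 and 0.0613). SEMA3G was rare, at 2.13 and 1.4 CPM in MLC and 0.313 and 0.112 in MesoT FCS, and its rise of 3.00 ± 0.92 in MLC over MesoT FCS (adjusted p = 0.0391) ended when any 1 of the 4 libraries was left out (0.0841 to 0.149). SEMA3A, SEMA3C and SEMA3E passed in none of the 3 comparisons. SEMA3A, the founding repellent of the class, had 128 and 111 CPM in MLC, 12.4 and 61.0 in MesoT FCS, and 30.0 and 76.1 in MesoT day 18. Both MLC libraries were above all others, but the replicates of the other groups were more than 2-fold apart.

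The neuropilins are the ligand-binding subunits for class 3 semaphorins and also bind VEGF. NRP1 had 98.0 and 128 CPM in MLC, 253 and 460.5 in MesoT FCS, and 72.3 and 53.7 in MesoT day 18. It rose in MesoT FCS by 2.50 ± 0.35 (adjusted p = 0.00826) under every alternative, while its ligand genes fell or did not pass. MLC was lower than MesoT FCS with a log2 difference of -1.66 ± 0.34 (0.0104), which ended without either MLC library (0.0815 and 0.0548). NRP2, which prefers SEMA3F and SEMA3C, had 93.3 and 88.7 CPM in MLC, 205 and 154 in MesoT FCS, and 223 and 78.5 in MesoT day 18, and passed in none of the 3.

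The plexins, the signalling subunits, divided by member. PLXNA2 had 366 and 376 CPM in MLC, 15.0 and 4.97 in MesoT FCS, and 52.0 and 41.6 in MesoT day 18. No group overlapped another. The log2 fold change was 2.99 ± 0.50 in MLC over MesoT day 18 (adjusted p = 0.00991), -2.22 ± 0.49 in MesoT FCS over MesoT day 18 (0.0242) and 5.20 ± 0.56 in MLC over MesoT FCS (0.00123). Without either MLC library the first missed the threshold (p of 0.0586 and 0.0602), and the other 2 passed under every alternative. PLXND1, a plexin of vessels that SEMA3E can bind without a neuropilin, had 137 and 127 CPM in MLC, 158 and 121 in MesoT FCS, and 37.9 and 39.8 in MesoT day 18. It was higher than in MesoT day 18 by 1.76 ± 0.19 in MLC (adjusted p = 0.0023) and by 1.84 ± 0.19 in MesoT FCS (0.00465), under all alternatives, with the day 18 libraries shared by both comparisons. The log2 difference of MLC from MesoT FCS was -0.08 ± 0.19 (adjusted p = 0.745).

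PLXNA1 had 62.0 and 83.7 CPM in MLC, 232 and 202 in MesoT FCS, and 129 and 99.7 in MesoT day 18. It rose in MesoT FCS by 0.93 ± 0.23 (adjusted p = 0.0324) and was lower in MLC than in MesoT FCS with a log2 difference of -1.57 ± 0.23 (0.00344). The rise ended without either MesoT FCS library or day 18 replicate 2 (0.0766 to 0.12) and with library totals (0.43, adjusted p = 0.141), and the difference from MLC stood under every alternative. PLXNB1, whose best known ligand is a class 4 semaphorin, had 148 and 142 CPM in MLC, 67.4 and 58.4 in MesoT FCS, and 115 and 65.1 in MesoT day 18. It was higher in MLC than in MesoT FCS by 1.21 ± 0.29 (adjusted p = 0.0167), a call that ended when any 1 of the 4 libraries was left out (0.0582 to 0.0834). PLXNC1, also known as a receptor of a class 7 semaphorin, had 0.198 and 0.228 CPM in MLC, 2.59 and 0.503 in MesoT FCS, and 1.61 and 7.69 in MesoT day 18. It fell in MLC against MesoT day 18 with a log2 difference of -4.43 ± 1.08 (adjusted p = 0.033), and this ended without either MLC library or day 18 replicate 2 (0.0734 to 0.195).

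Among the ephrins, EFNA1, an A-type ephrin held in the membrane by a lipid anchor, had 70.7 and 59.6 CPM in MLC, 2.95 and 1.17 in MesoT FCS, and 32.1 and 59.3 in MesoT day 18. The MesoT FCS libraries were at least 10 times below all others. The log2 fold change was -4.45 ± 0.52 in MesoT FCS over MesoT day 18 (adjusted p = 0.00564) and 4.96 ± 0.53 in MLC over MesoT FCS (0.00122), under every alternative. EFNB2, a transmembrane ephrin that marks arterial endothelium, had 240.2 and 249 CPM in MLC, 107 and 51.3 in MesoT FCS, and 227 and 237 in MesoT day 18. It was lower in MesoT FCS than in MesoT day 18 with a log2 difference of -1.55 ± 0.35 (adjusted p = 0.0247), and higher in MLC than in MesoT FCS by 1.63 ± 0.35 (0.0118). The first ended without day 18 replicate 2 (0.0567), the second without either MLC library (0.0583 and 0.0658). EFNB1 had 120.1 and 110.5 CPM in MLC and 52.5 and 55.7 in MesoT FCS, a difference of 1.09 ± 0.26 (adjusted p = 0.0164) that ended when any 1 of the 4 libraries was left out (0.0636 to 0.0902). No ephrin passed between MLC and MesoT day 18.

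Of the 7 Eph receptors, the tyrosine kinases that bind ephrins, EPHB3 was the one that passed between MesoT FCS and MesoT day 18. It had 131 and 137 CPM in MLC, 7.32 and 11.9 in MesoT FCS, and 47.1 and 77.2 in MesoT day 18, with no overlap between groups. The log2 fold change was -2.70 ± 0.34 in MesoT FCS over MesoT day 18 (adjusted p = 0.00654) and 3.80 ± 0.35 in MLC over MesoT FCS (8.26e-04), both under every alternative, and 1.11 ± 0.32 in MLC over MesoT day 18 (0.051). EPHB2 had 670.2 and 520.5 CPM in MLC, 205 and 194 in MesoT FCS, and 440.4 and 141 in MesoT day 18. It was higher in MLC than in MesoT FCS by 1.58 ± 0.51 (adjusted p = 0.0459), which ended when any 1 of the 4 libraries was left out (0.114 to 0.172). EPHB4, which binds EFNB2 and marks veins, passed in none of the 3, at 148 and 142 CPM in MLC, 155 and 159 in MesoT FCS, and 128 and 135 in MesoT day 18. EPHA2 had 65.1 and 50.5 CPM in MLC, 255 and 218 in MesoT FCS, and 239.6 and 41.6 in MesoT day 18. Its MLC and MesoT FCS values were far apart, but the 2 day 18 libraries covered nearly the whole range, and no comparison passed (adjusted p = 0.0636 in MLC over MesoT FCS).

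Of 12 mesothelial markers, 3 were higher and none lower in MLC than in MesoT day 18 (7.83% and 16.8% of all genes), and 1 was higher and 5 lower in MesoT FCS than in MesoT day 18 (13% and 14.4%). Between MLC and MesoT FCS, 8 were higher and 1 lower in MLC (22.6% and 26.3%). Of 10 fibroblast and mesenchymal markers, 1 was higher and 6 were lower in MLC than in MesoT FCS, with 19117 to 22692 summed CPM in MLC, 45182 to 64326 in MesoT FCS and 17392 to 35099 in MesoT day 18. The 9 smooth muscle markers summed to 222 to 239 CPM in MLC, 1794 to 7439 in MesoT FCS and 286 to 1676 in MesoT day 18. In MLC, 1 was higher and 5 lower than in MesoT day 18 (7.83% and 16.8% of all genes). Against MesoT FCS, 0 were higher and 7 lower in MLC (22.6% and 26.3%). Genes of high level such as TAGLN weighed on these sums. DES ran the other way, at 89.2 and 92.1 CPM in MLC and 32.5 and 2.68 in MesoT FCS. The part of these 3 lists in the differences between MLC and MesoT FCS was not tested.

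Smooth muscle was a single library, so its own spread was not measured and was taken as that of the other groups. Of the 38 genes tested against MesoT day 18, 1 rose and 4 fell, or 13.2%, where 8.67% of all genes passed (5.08% higher and 3.58% lower), and the median log2 fold change was -0.07 over these genes and -0.084 over all genes. With library totals alone, 1 was higher and 5 lower, and the calls over all genes split into 732 higher and 1493 lower in place of 1172 and 826. SLIT2 had 8.59 CPM in smooth muscle, against 96.4 and 125 in MesoT day 18, which gave -3.69 ± 0.39 on the log2 scale (adjusted p = 0.0142). EPHB2 had 8.67 CPM in smooth muscle, against 440.4 and 141 in MesoT day 18 (-5.07 ± 0.82, adjusted p = 0.0268). PLXND1 had 412 CPM in smooth muscle, against 37.9 and 39.8 in MesoT day 18 (3.41 ± 0.22, adjusted p = 0.00686). These 3 passed under all 8 alternatives, and PLXND1 was higher in smooth muscle than in any other library of the set.

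NEO1 had 49.5 CPM in smooth muscle, against 125 and 163 in MesoT day 18 (-1.55 ± 0.33, adjusted p = 0.0435), and did not pass without day 18 replicate 2 (0.056). NTN4 had 1.71 CPM in smooth muscle, against 15.8 and 8.17 in MesoT day 18 (-2.81 ± 0.59, adjusted p = 0.043), and did not pass with limma voom (0.0929). UNC5B, UNC5D and SEMA3C did not pass, at 552, 21.2 and 414 CPM in smooth muscle. In MesoT day 18 UNC5B had 265 and 241 CPM, UNC5D 1.51 and 9.53, and SEMA3C 406 and 294, close to smooth muscle in replicate 1. Further genes of the list were also above both MesoT day 18 libraries in the smooth muscle library without passing. The basal epidermal markers given above were higher in this library for 7 of 8 genes, where 5.08% of all genes were higher, and their part in its 5 calls was not tested.

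The human table held the cells that reached the MLC state by way of MesoT. MesoT-derived MLC was set against MesoT of both days (4 libraries). SLIT3, NTN4, UNC5A, NEO1, SEMA3B, EFNB1 and EPHB4 were higher and ROBO2, UNC5B and EPHA4 were lower. Of 39 genes tested, 7 rose and 3 fell, or 25.6%, where 9.94% of the 22316 genes tested passed (6.63% higher and 3.32% lower). The median log2 fold change was -0.20 over these genes and -0.054 over all genes. UNC5A, 1 of the 7, met the count filter only through MesoT-derived MLC and so had to differ, which leaves 9 calls to read against the background. None of the 10 calls stood under all 12 alternatives. All 10 ended without MesoT-derived MLC replicate 2 and without MesoT day 22 replicate 1, with adjusted p between 0.0562 and 0.232. In the fits without 1 library the number of calls moved widely over all genes as well as over these. The ranges of both are given at the end, and these losses are not read as particular to this list. This group shares its medium with MLC but sits in another set, so the 2 were not tested against each other.

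SLIT3 had 314 and 617 CPM in MesoT-derived MLC, 117 and 96.8 in MesoT day 22, and 202 and 145 in MesoT day 18. Both MesoT-derived MLC libraries were above all 4 MesoT libraries, though the pair was itself about 2-fold apart. The log2 fold change was 1.77 ± 0.30 (adjusted p = 0.0276). SLIT2 had 92.6 and 143 CPM in MesoT-derived MLC, 174 and 55.0 in MesoT day 22, and 117 and 141 in MesoT day 18. These ranges overlap throughout, and its log2 fold change was -0.04 ± 0.46 (adjusted p = 0.959). ROBO2 had 12.3 and 4.93 CPM in MesoT-derived MLC, 67.1 and 29.4 in MesoT day 22, and 52.6 and 34.0 in MesoT day 18, with a log2 difference of -2.41 ± 0.54 (adjusted p = 0.0467).

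In the netrin system, NEO1 had 399.9 and 471 CPM in MesoT-derived MLC, 151 and 165 in MesoT day 22, and 158 and 185 in MesoT day 18. Both MesoT-derived MLC libraries were above all 4 MesoT libraries, while the 2 MesoT days overlapped each other, with a log2 fold change of 1.4 ± 0.17 (adjusted p = 0.0158). NTN4 had 46.6 and 89.3 CPM in MesoT-derived MLC, 15.8 and 11.4 in MesoT day 22, and 19.4 and 9.68 in MesoT day 18 (2.27 ± 0.37, adjusted p = 0.0245). UNC5B had 68.9 and 22.8 CPM in MesoT-derived MLC, 296 and 227 in MesoT day 22, and 323 and 279 in MesoT day 18 (-2.61 ± 0.49, adjusted p = 0.0332). UNC5A, an UNC5 receptor known mainly from neurons, was rare, at 1.64 and 2.57 CPM in MesoT-derived MLC. It had 123 counts there and 3 counts over the 4 MesoT libraries, which is 78.4 times after scaling for depth (95% counting interval 26.2 to 385). No weight is put on its test, since the filter kept it for its level in this group alone. The neuron and neural crest markers summed to 67.8 to 92.2 CPM in MesoT-derived MLC, 75.1 to 161 in MesoT day 22 and 96.9 to 125 in MesoT day 18.

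SEMA3B had 209 and 477 CPM in MesoT-derived MLC, 55.6 and 63.4 in MesoT day 22, and 72.8 and 39.2 in MesoT day 18 (2.57 ± 0.38, adjusted p = 0.0217). Both MesoT-derived MLC libraries were above all 4 MesoT libraries, and the 2 MesoT days overlapped. The other 6 class 3 semaphorins, both neuropilins and all 5 plexins did not pass. PLXND1, high in MLC and MesoT FCS above, had 83.6 and 53.8 CPM in MesoT-derived MLC, 51.3 and 63.7 in MesoT day 22, and 51.1 and 47.5 in MesoT day 18 (0.37 ± 0.22, adjusted p = 0.298). PLXNA2 had 38.9 and 23.8 CPM in MesoT-derived MLC, inside the range of 22.0 to 64.4 over the 4 MesoT libraries.

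EFNB1, a transmembrane ephrin whose loss causes craniofrontonasal syndrome in people, had 434 and 366 CPM in MesoT-derived MLC, 85.2 and 66.6 in MesoT day 22, and 134 and 81.2 in MesoT day 18. The lower MesoT-derived MLC library was more than 2 times the highest MesoT library, and the log2 fold change was 2.15 ± 0.24 (adjusted p = 0.0142). EPHA4, a receptor that binds ephrins of both types, had 9.40 and 8.66 CPM in MesoT-derived MLC, 24.0 and 32.1 in MesoT day 22, and 30.6 and 54.5 in MesoT day 18 (-1.94 ± 0.30, adjusted p = 0.0232). EPHB4 had 309.9 and 222 CPM in MesoT-derived MLC, 149.6 and 126 in MesoT day 22, and 160.3 and 164 in MesoT day 18 (0.83 ± 0.19, adjusted p = 0.0494). EPHB4 was the least secure of the 10: it also missed the threshold under both other scalings, without the count filter and with limma voom (0.05003 to 0.0929), while DESeq2 called it. ROBO2 missed it without the count filter (0.0573). Mesothelial markers were higher for 5 of 12 genes and lower for none in MesoT-derived MLC, where 6.63% of all genes were higher, and their part in these results was not tested.

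**Figure D4:**
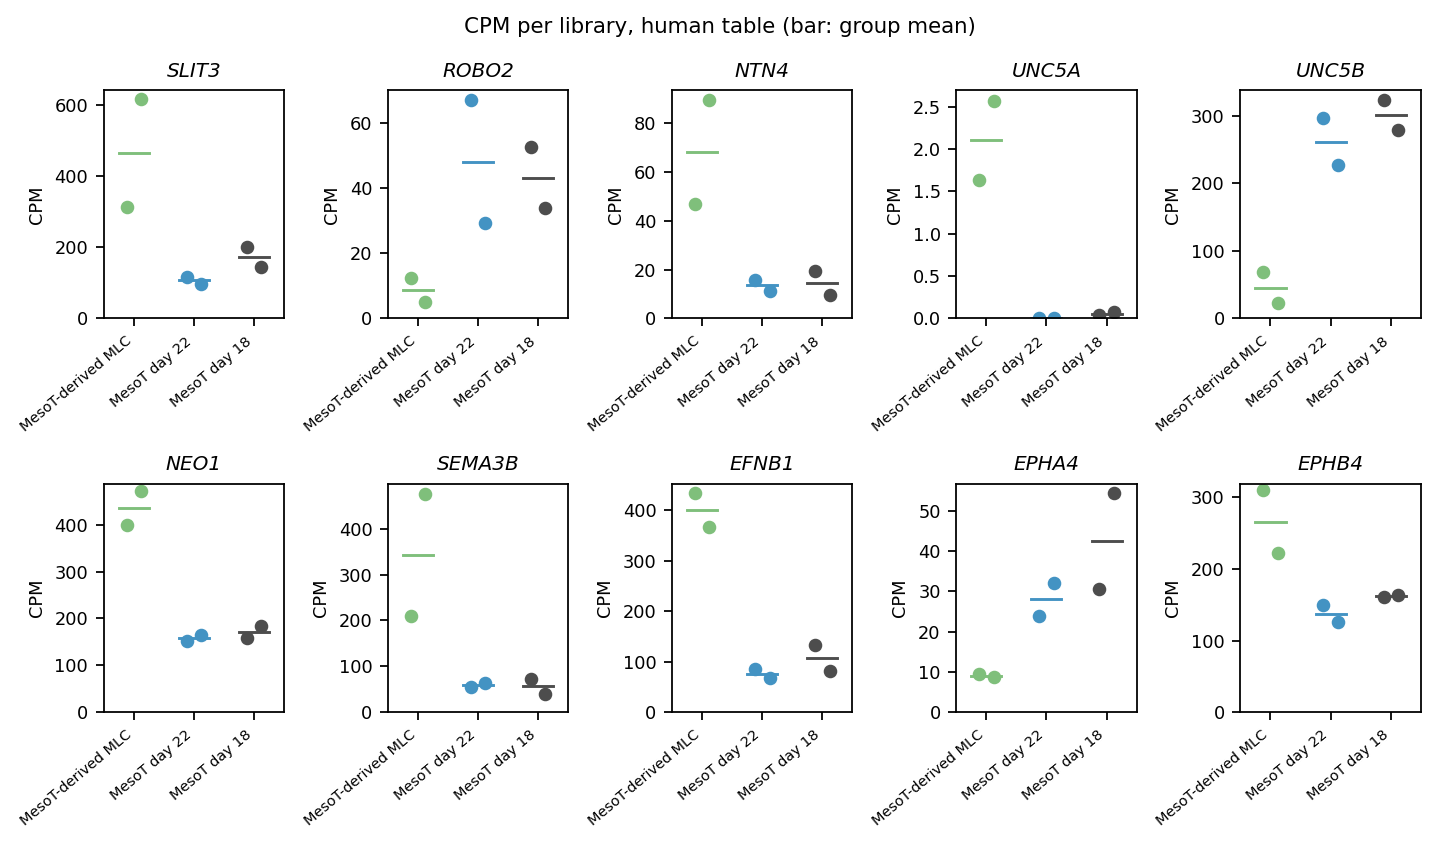
Each panel gives 1 gene's CPM on a linear axis from 0 in the 2 MesoT-derived MLC, 2 MesoT day 22 and 2 MesoT day 18 libraries, 1 point per library, with a bar at the group mean. NEO1, EFNB1, SEMA3B and SLIT3 have both MesoT-derived MLC points above all MesoT points, and ROBO2, UNC5B and EPHA4 have both below.

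Between MesoT day 22 and MesoT day 18 no gene passed, among the 39 of this list or among all 22316 (0% called). Of the 39, PLXNA2 and UNC5A had an unadjusted p under 0.05, as did 171 of all genes, and DESeq2 and limma voom also called 0. UNC5A had 0 counts in MesoT day 22 and 3 in MesoT day 18, so no weight is put on its test here either. PLXNA2 had 22.0 and 35.1 CPM in MesoT day 22 and 64.4 and 50.0 in MesoT day 18, which is -1.0 ± 0.34 on the log2 scale (edgeR adjusted p = 1).

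The MesoT replicates were more than 2-fold apart in part of these genes. The same counts were not made over all genes, so those below are not read as a trait of this list. Among genes with at least 10 counts in a library of the group, 16 of 38 were more than 2-fold apart between the MesoT day 18 libraries in the human table and 8 of 38 between the day 22 libraries, against 10 of 38 in MesoT-derived MLC. In the one-library files it was 0 of 36 in MLC, 13 of 35 in MesoT FCS and 16 of 38 in MesoT day 18. EPHA2 had 150.2 and 53.8 CPM at day 22 and 298 and 50.3 at day 18, replicate 1 first, and EPHB2, NRP2 and NTN1 were also higher in replicate 1 at both days. UNC5C had 38.1 and 65.2 CPM at day 22 and 21.5 and 94.5 at day 18, and UNC5D, EFNA5, SEMA3A, EPHA7 and ROBO4 were also lower in replicate 1 at both. SLIT2, DCC, EPHA3 and PLXNC1 differed in opposite directions at the 2 days, and these genes are named after their values were seen. Of the 38 genes, 26 differed in the same direction at both days. Over all 22316 genes the replicate differences of the 2 days correlated at 0.557, so a shared direction was not particular to this list. The smooth muscle markers moved with the same libraries, at 1568 and 284 summed CPM in replicates 1 and 2 of day 22 and 1540 and 262 in those of day 18. Their part in these differences was not tested.

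**Figure D5:**
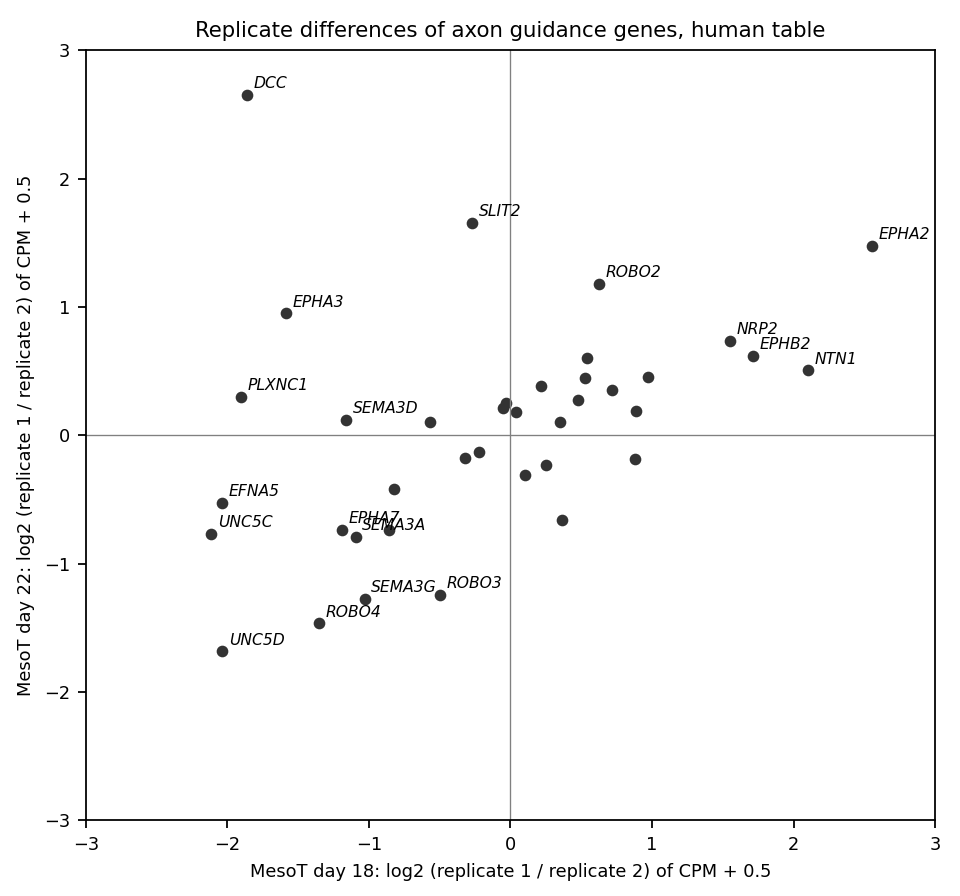
Each point is a gene, with the log2 difference of replicate 1 minus replicate 2 of MesoT day 18 on the x axis and of MesoT day 22 on the y axis, both from the human table in CPM plus a pseudocount of 0.5. EPHA2, EPHB2, NRP2 and NTN1 lie to the upper right, and UNC5C, UNC5D, EFNA5, SEMA3A and EPHA7 to the lower left, while DCC and SLIT2 lie in the upper left.

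A second list of 64 axon guidance genes outside the 40 (other ligands, other receptors, and proteins that carry the signal inside the cell) was described in the same fits. Its calls were not followed through the alternatives, so how far they hold is not known. In MLC against MesoT day 18, 5 of 60 tested rose and 9 fell, or 23.3%, next to 24.6% of all genes. In MesoT FCS against MesoT day 18, 9 of 60 rose and 17 fell, or 43.3%, next to 27.3% of all genes. In MLC against MesoT FCS, 17 of 60 were higher and 12 lower, or 48.3%, next to 48.9% of all genes. The first and the third of these shares are at the background. In smooth muscle against MesoT day 18, 4 of 60 rose and 4 fell, or 13.3%, next to 8.67% of all genes, and in MesoT-derived MLC against MesoT, 7 of 61 rose and 2 fell, or 14.8%, next to 9.94%. By class, 10 of 26 ligands fell and 1 rose in MesoT FCS against MesoT day 18, where 14.4% of all genes fell and 13% rose, while signal transducers were split, with 5 higher and 5 lower of 25.

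Those with the smallest p included several partners of the receptors above. RGMB, a ligand of neogenin and a BMP co-receptor, averaged 75.2 ± 21.0 CPM in MesoT FCS and 14.4 ± 1.09 in MesoT day 18 (SD, n = 2 each), a log2 fold change of 2.39 ± 0.24 (adjusted p = 0.00446), where NEO1 fell. In MLC it averaged 9.93 ± 0.69 CPM, below MesoT FCS with a log2 difference of -2.92 ± 0.25 (adjusted p = 6.48e-04). FLRT3, a membrane ligand of UNC5 receptors, averaged 260.2 ± 29.9 CPM in MLC and 10.1 ± 1.43 in MesoT FCS (SD, n = 2 each), a difference of 4.69 ± 0.38 (5.84e-04). SEMA6D, a membrane semaphorin read by plexin A receptors, averaged 150.0 ± 16.7 CPM in MLC and 3.64 ± 2.43 in MesoT FCS (SD, n = 2 each; 5.38 ± 0.50, adjusted p = 8.54e-04). DRAXIN, a secreted repellent that binds DCC and neogenin, had 0.0447 and 0.0558 CPM in MesoT FCS, which is 1 count in each library. In MesoT day 18 it had 7.70 and 4.34 CPM, above MesoT FCS (edgeR adjusted p = 0.00426). Its counts in MesoT FCS are too few to measure a spread. EFNA2 and SRGAP3, a Slit-Robo GTPase activating protein, fell in the same comparison, with log2 differences of -2.74 ± 0.28 and -3.98 ± 0.37 (0.00453 and 0.00381).

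EPHA5 averaged 0.0753 ± 0.0057 CPM in MLC, 5.61 ± 0.29 in MesoT FCS and 1.25 ± 0.12 in MesoT day 18 (SD, n = 2 each), and was lower in MLC than in either (adjusted p = 4.28e-04 and 0.00207). ABLIM1, an actin-binding protein downstream of netrin signalling in worms, SEMA6B and DPYSL5, a collapsin response mediator, also fell in MLC against MesoT day 18, with log2 differences of -1.84 ± 0.17, -4.10 ± 0.58 and -2.68 ± 0.38 (0.0014, 0.00563 and 0.00593). DPYSL5 fell in smooth muscle too (edgeR adjusted p = 0.0142), where its 0.0407 CPM is 1 count in the 1 library. FLRT3 also fell in smooth muscle (-3.46 ± 0.49, 0.0216). SEMA4B and NGEF, an exchange factor downstream of EPHA4, rose in smooth muscle (1.92 ± 0.29 and 3.05 ± 0.55, adjusted p of 0.0233 and 0.0317). In MesoT-derived MLC, DPYSL5 went the other way, at 71.3 ± 23.0 CPM (SD, n = 2) and 12.49 ± 3.16 in MesoT (SD, n = 4; 2.52 ± 0.27, adjusted p = 0.0137). EPHB6 and EPHA6 rose there as well (1.67 ± 0.15 and 1.46 ± 0.28, adjusted p of 0.0111 and 0.0334), and SEMA4A fell (-2.85 ± 0.39, 0.0193).

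In the mouse, Slit2 was the gene of this list that could be named, and the 4 organs had 1 library each, so no test was made. Slit2 stood at 289 CPM in heart cells (95% Poisson interval 283 to 295, from 8625 counts), 203 in lung cells (197 to 210, 4305 counts), 13.5 in liver cells (12.2 to 15.0, 374 counts) and 388 in gut cells (381 to 395, 11867 counts). Gut was highest and liver lowest, 28.7-fold apart. The intervals cover counting error only, and the spread between embryos is not known. The headings of the mouse counts give an earlier embryonic day than the labels, and the series title calls the mice neonatal.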

How the data were processed

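Of the 18 samples, the 15 with gene counts were used, and the 3 ChIP samples were not. The authors deposited raw counts per gene, as 7 one-library files, a human table (6 columns used) and a mouse table (4 columns). The tools listed, with no role given, are featureCounts, Subread 1.4.2, MACS2 2.1.1, Bowtie2 2.2.9 and TopHat2 2.0.13, and the build is hg19, all per the submitters' processing notes. Whether strand was used in counting is not given in the sources used here, so reads of a gene and of an overlapping or antisense gene cannot be told apart.

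The members and lists were chosen with earlier results of these data known. Each human set was fitted apart in edgeR 4.0.16 (R 4.3.3): TMM scaling, filterByExpr by group, a quasi-likelihood test with 3 residual degrees of freedom, and Benjamini-Hochberg adjustment over all genes tested, with a threshold of 0.05. SE is the absolute log2 fold change over the root of F. CPM uses TMM-scaled library sizes. MesoT-derived MLC was set against the mean of both MesoT days. Values are given for every member past the threshold in a comparison, and the 4 other axon guidance genes of smallest p are named in each. Alternatives were 2 other scalings, no count filter, DESeq2 1.42.0, limma 3.58.1 voom, the replicate number as a block, fits without each library or without smooth muscle, and the MesoT day 18 counts of the human table. Intervals are at 95% (exact Poisson for levels, binomial-based for ratios) and a count of 0 was set at 3 counts. The GCGTGGG and TATATA motifs were added after the windows had been seen. The fits were tested on simulated data with less spread between libraries than these data. The common biological coefficient of variation here was 0.332 in the one-library files and 0.3148 in the human table. That test therefore cannot tell how the calls hold at the spread of these libraries.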

Additional observations from a re-analysis of the deposited data

How the results depend on the processing

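No call named in the report changed direction under any alternative. The calls that stood under all alternatives numbered 2 of 8 in MLC against MesoT day 18 (SLIT2 and PLXND1), 8 of 18 in MesoT FCS against MesoT day 18, 13 of 22 in MLC against MesoT FCS, 3 of 5 in smooth muscle and 0 of 10 in MesoT-derived MLC. Most losses came with the loss of a library, which can leave 1 library in a group that is then assumed to vary like the other groups.

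Leaving out 1 library at a time gave 2 to 13 members called in MLC against MesoT day 18 (2 without either MLC library), 10 to 19 in MesoT FCS (10 without MesoT FCS replicate 1), 13 to 21 in MLC against MesoT FCS (13 without either MLC library), 6 to 8 in smooth muscle and 0 to 14 in MesoT-derived MLC. Over all genes the ranges were 1714 to 6601, 2783 to 7845, 4962 to 8507, 2339 to 4292 and 0 to 2995. DESeq2 called 9 members and 4888 genes in smooth muscle, and 17 members and 4604 genes in MesoT-derived MLC. With the MesoT day 18 counts of the human table, 8 members and 7935 genes passed in smooth muscle, 9237 genes in MLC and 12757 in MesoT FCS. That alternative sets groups of the one-library files against a reference from the other counting, so group and counting cannot be told apart in it. The cause of these differences was not tested.

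With the replicate number as a block, members called numbered 6 in MLC against MesoT day 18, 17 in MesoT FCS, 28 in MLC against MesoT FCS, 11 in MesoT-derived MLC and 0 between the MesoT days, and over all genes 4718, 5863, 10614, 2800 and 0 passed. In that fit ROBO4, DCC, SEMA3F and PLXNC1 missed the threshold in MLC against MesoT day 18 (adjusted p between 0.0544 and 0.0775), SEMA3B in MesoT FCS (0.0602) and SEMA3G in MLC against MesoT FCS (0.0618). The labels do not say that a number marks a shared culture. Deviations of same-numbered libraries correlated at 0.0107 to 0.073 in the one-library files, and at -0.0636, -0.00768 and 0.557 (MesoT day 22 with MesoT day 18) in the human table, so with 2 numbers these fits stay an alternative. Library totals moved the median log2 fold change of all genes by -0.14 in MLC and -0.39 in smooth muscle over MesoT day 18, 0.35 in MLC over MesoT FCS and -0.16 in MesoT-derived MLC. By library totals mouse Slit2 stood at 274 CPM in heart and 413 in gut. Groups of 1 or 2 libraries, with 3 residual degrees of freedom, limit which differences can pass.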
